A study of Mus musculus with 36 samples.

Results

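Transcription factor genes that mark the formative and primed states of pluripotency, 7 in number, were followed through the differentiation of mouse embryonic stem cells: Otx2, Pou3f1, Zic2, Zic5, Sall2, Foxd3 and Grhl2. All 7 were found by symbol among the 25965 genes of the deposited table, and all 7 were among the 14612 genes tested. The cells were Xmas mESCs, female C57/Bl6 lines in which one X chromosome carries a GFP reporter and the other an mCherry reporter, both placed at the X-linked gene Hprt. On day 0 the cells grew in 2i and LIF, and over the first days of the course they were moved stepwise into serum-containing DME HiHi medium without LIF, with RNA taken daily up to day 8. The 36 libraries fall on 9 days with 4 a day: the line X14 with the labels double (replicate 1) and single (replicate 2), and the line X18 with the labels double (replicate 3) and single (replicate 4). What double and single stand for is not given in the labels, and both words are used only as names. The paper found that Xmas mESCs positive for a single reporter carried only the corresponding allele, and it reads such cells as XO. Whether the single libraries came from such cells was not tested. A gap between the labels therefore need not lie between cultures with the same X chromosomes. Nothing in the labels says that the 4 libraries of a day came from independent experiments. The tests between days therefore measure the spread between these cultures. The samples are bulk RNA, in which fewer cells using a gene and less RNA per cell cannot be told apart.

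Naive pluripotent cells correspond to the early epiblast before implantation, and primed cells to the epiblast after it. Between them lies a formative phase, in which the naive network is shut down and cells become competent to respond to signals for the germ layers. OTX2, a homeodomain protein, and POU3F1 (OCT6), a POU domain protein, are among the first factors to appear in that phase, and OTX2 guides OCT4 to new enhancers. ZIC2 and ZIC5 are zinc finger proteins of a family with roles in the epiblast and the neural plate. SALL2 is a zinc finger protein of the spalt family. FOXD3 is a forkhead factor needed to maintain the epiblast and used again in the neural crest, and GRHL2 is a grainyhead factor that opens enhancers of epithelial genes in the epiblast.

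Depth, counted as reads in genes, lay between 612740 and 2445826 (median 1297944), so 3 reads, taken here as the floor of a dependable level, stand for 1.04 to 3.90 RPM (the reads of a gene scaled to a common library size). Levels of one gene are given in RPM, and levels are compared between genes only in RPKM, which also divides by exon length. The libraries labelled X14 on day 0 go against their labels. In them the median double minus single difference of 569 X-linked genes, relative to 14042 autosomal genes, was -1.14 on the log2 scale, whereas it lay between 0.25 and 1.05 in the other 17 pairs of a line and a day. Where leaving them out changed a call of the 7 genes against day 0, or the count of a gene list on day 4 or day 8 against day 0, both values are given.

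The positions are those of mm10 as the deposited table gives them. Otx2 (ENSMUSG00000021848) is at chr14:48657679-48667644 on the minus strand, Sall2 (ENSMUSG00000049532) at chr14:52311172-52328762 on the minus strand, and Zic5 (ENSMUSG00000041703) at chr14:122456795-122465677 on the minus strand. Zic2 (ENSMUSG00000061524) starts 9757 bases from Zic5 on the opposite strand, at chr14:122475435-122479852. Foxd3 (ENSMUSG00000067261) is at chr4:99656299-99658671 and Pou3f1 (ENSMUSG00000090125) at chr4:124657646-124660655, both on the plus strand. Grhl2 is at chr15:37233036-37363569 on the plus strand, and its line in the table also names the overlapping antisense gene Gm16136. GENCODE places antisense transcripts over parts of Otx2, Pou3f1 and Grhl2. Whether counting used the strand is not stated, so reads of these partners cannot be told apart from those of the genes.

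The upstream sequences of Otx2 and Foxd3 are shown because Otx2 had the largest rise among the 7 genes and Foxd3 the largest fall. Both are the 250 bases before a RefSeq start (GRCm38.p6), read 5′ to 3′ along the gene's strand, Otx2 at chr14:48667645-48667894 (minus) and Foxd3 at chr4:99656049-99656298 (plus). Neither stretch holds an annotated exon in GENCODE M21. Capitals mark the letters TATAAA.
Otx2: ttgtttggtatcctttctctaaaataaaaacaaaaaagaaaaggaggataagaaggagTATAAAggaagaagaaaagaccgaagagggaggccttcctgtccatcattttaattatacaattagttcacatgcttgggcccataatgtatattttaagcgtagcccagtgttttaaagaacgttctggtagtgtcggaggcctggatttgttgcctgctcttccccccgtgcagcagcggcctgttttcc
Foxd3: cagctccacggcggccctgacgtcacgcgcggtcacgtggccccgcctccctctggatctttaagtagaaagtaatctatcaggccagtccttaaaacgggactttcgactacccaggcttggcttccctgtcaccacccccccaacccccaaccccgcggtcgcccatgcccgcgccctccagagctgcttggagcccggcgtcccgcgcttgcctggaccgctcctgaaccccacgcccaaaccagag
Of the Otx2 bases 42% were G or C, and of the Foxd3 bases 65.6%. Promoter entries were matched for 4 of the 7 genes, in 8 windows: 4 starts of Otx2, 2 of Sall2, 1 of Zic5 and 1 of Foxd3. In both strands of these windows the bicoid core TAATCC, a letter pattern bound by OTX proteins, was found once, at another start of Otx2, and it was found in 6.25% of all 32851 promoter windows of this length. The octamer ATTTGCAT, bound by POU proteins, and the grainyhead pattern AACNGGTT were in none of the 8 windows, and in 1.6% and 1.79% of all windows. TATAAA was found in 2 of the 8 windows, at 192 bases before the Otx2 start shown above and in a window of Sall2, and in 12.4% of all windows. No matches overlapped. A match describes the letters and not binding.

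Of the 7 genes, 5 rose from day 0 and 2 did not pass the test on any day. Days were compared with limma on the authors' log2 scale, all 36 libraries sharing one estimate of the spread, and a gene was called where the Benjamini-Hochberg adjusted p over all genes tested was under 0.05 and the change reached 1 on the log2 scale in either direction. The day of first rise is the first day called higher than day 0. It was day 2 for Otx2 and Foxd3, day 3 for Pou3f1 and Grhl2, and day 4 for Sall2. Foxd3 already stood 2.04 above day 0 on day 1, without a call (adjusted p = 0.45). By the highest mean log2 value the peak was on day 2 for Zic5, day 3 for Zic2, day 4 for Otx2, Pou3f1 and Foxd3, and day 6 for Sall2 and Grhl2. For Sall2 and Grhl2 day 6 did not differ from day 4 in the test (0.11 and 0.17, adjusted p = 0.926 and 0.806). By mean RPM Sall2 stood highest on day 4, at 66.6 RPM against 65.1 RPM on day 6. The first later day with a mean at least 1 log2 unit under the peak was day 5 for Otx2, Pou3f1, Zic2 and Foxd3 and day 7 for Zic5 and Sall2, and there was none for Grhl2. Zic2 and Pou3f1 came back within 1 log2 unit of their peak on day 6, Zic2 on day 7 as well, and the others did not after that day.

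**Figure D1:**
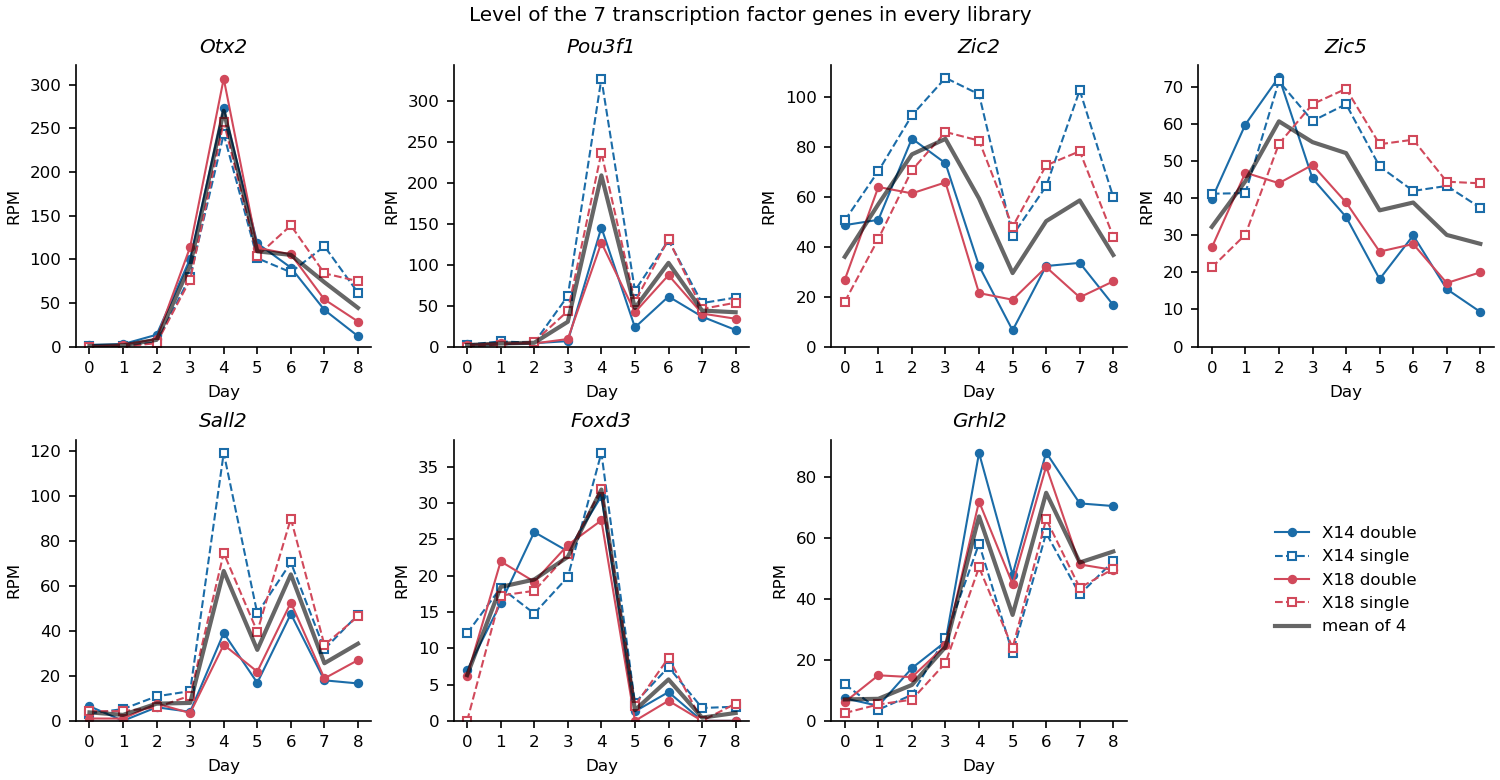
Level (RPM, linear axes that differ between panels) of each of the 7 genes on days 0 to 8. Thin lines are the 4 cultures, filled for double and open for single, and the thick line is their mean. Otx2, Pou3f1 and Foxd3 stand highest on day 4 in all 4 cultures, and Grhl2 on day 6 in all 4.

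Counted by day, none of the 7 genes was called higher on day 1. There were 2 by day 2, 4 by day 3 and 5 by day 4, and then 4 at each of the later time points. Over all genes tested 0.0342%, 2.09%, 5.72%, 12.2%, 15.8%, 22.4%, 23.8% and 23.9% were called higher on days 1 to 8. On day 1 no member was called by voom on the recovered reads either. An unadjusted p under 0.05 was found for 1 member, beside 775 of the 14612 genes tested. Called lower was 1 gene, Foxd3, on days 5, 7 and 8, when 11.0%, 11.6% and 11.1% of all genes were lower. The median log2 fold change of the 7 genes was 3.42 on day 4 and 3.17 on day 8, beside 0.12 and 0.23 over all genes tested. Without the X14 libraries of day 0 the medians of the 7 genes were 4.05 and 3.79.

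Otx2 had the largest rise. In the order of replicates 1 to 4 its level on day 0 was 1.85, 0.463, 0 and 0 RPM, or 5 reads in all. On day 2 it was 13.6, 4.66, 8.62 and 3.98 RPM, and on day 3 it was 101, 80.2, 114 and 76.6 RPM. On day 4 it stood at 273, 243, 307 and 257 RPM, above every library of any other day. The day 4 mean was 270 ± 27.4 RPM (SD, n = 4). Relative to day 0 the log2 change reached 2.95 by day 2 (SE 0.44, adjusted p = 0.000136), 6.70 by day 3 (adjusted p = 8.63e-13) and 8.25 by day 4 (adjusted p = 1.01e-15). Since the day 0 libraries held 0 to 4 reads, the size of these folds depends on the value written for a gene without reads. From the reads alone day 4 was 350-fold higher than day 0 with a 95% exact counting interval of 150 to 1080, which covers counting error only. In a fit of days 0 and 2 alone the day 2 change did not pass (adjusted p = 0.11).

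The steepest single step of Otx2 was from day 2 to day 3, with a log2 change of 3.75 (adjusted p = 5.12e-06), when 0.185% of all genes were called between these days. No other member was called in that step. A further 1.55 was added by day 4 (adjusted p = 0.0285). Otx2 then fell by 1.31 on day 5 (adjusted p = 0.0396), to 118, 101, 113 and 104 RPM, which lie close together and do not overlap with day 4. By day 8 it was at 11.9, 61.7, 28.7 and 74.9 RPM, with both double libraries under both single ones. That was a fall of 2.92 from day 4 (adjusted p = 4.1e-06) to 16.4% of the peak mean, and still 5.33 above day 0 (adjusted p = 1.26e-11). The steps into day 4 and day 5 and the fall from day 4 to day 6 (-1.38, adjusted p = 0.0312) did not pass when replicate 2, 3 or 4 was left out, with adjusted p from 0.0615 to 0.189, and the step into day 5 did not pass under the 75th percentile scaling (-1.21, adjusted p = 0.0594) or quantile normalization (adjusted p = 0.0686).

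Pou3f1 came 1 day later in the test and peaked on the same day. It was at 2.78, 2.32, 2.06 and 0 RPM on day 0 and at 4.14, 4.66, 3.83 and 5.96 RPM on day 2. On day 3 the labels parted, with 6.67 and 9.22 RPM in the double libraries of X14 and X18 against 61.8 and 43.4 RPM in the single ones. On day 4 the 4 libraries held 145, 327, 127 and 237 RPM, a mean of 209 ± 92.1 (SD, n = 4). Relative to day 0 Pou3f1 had changed by 3.497 on the log2 scale at day 3 (SE 0.51, adjusted p = 1.73e-05) and by 6.77 at day 4 (adjusted p = 9.99e-12). The step from day 3 to day 4 was 3.27 (adjusted p = 5.72e-05), and the step from day 4 to day 5 was -2.15 (adjusted p = 0.00366). On day 5 the values were 23.4, 68.3, 41.8 and 54.9 RPM and on day 6 they were 61.1, 130, 87.1 and 131 RPM, higher in each of the 4 cultures, a step that did not pass the test. On day 8 Pou3f1 was at 20.2, 59.8, 33.9 and 53.5 RPM, 20.1% of the peak mean and 2.33 below day 4 on the log2 scale (adjusted p = 0.000578). With replicate number as a block the day 2 change of 1.36 also passed (adjusted p = 0.0424), as did the step from day 2 to day 3 of 2.14 (adjusted p = 0.0133).

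Sall2 moved between day 3 and day 4. Its levels were 6.48, 3.24, 1.03 and 4.27 RPM on day 0, 4.00, 13.2, 3.46 and 11.2 RPM on day 3, and 39.0, 119, 33.8 and 74.5 RPM on day 4. The step from day 3 to day 4 was 3.12 on the log2 scale (SE 0.59, adjusted p = 0.000566), and day 4 stood 4.24 above day 0 (adjusted p = 1.51e-06). The level was 16.9, 47.7, 21.9 and 39.6 RPM on day 5 and 47.5, 70.4, 52.5 and 89.9 RPM on day 6, where 3 of the 4 cultures had their highest value. On day 8 it was 16.6, 47.1, 27.0 and 46.4 RPM, which was 3.34 above day 0 (adjusted p = 2.16e-05). Its difference between day 8 and day 4 of -0.89 (SE 0.59) did not pass (adjusted p = 0.259).

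Grhl2 rose by day 3 and stayed above day 0 to the end. It was at 7.40, 12.04, 6.17 and 2.56 RPM on day 0, at 26.0, 27.3, 24.8 and 19.0 RPM on day 3 and at 88.1, 58.2, 72.1 and 50.4 RPM on day 4. On day 6 it reached 88.2, 61.7, 83.6 and 66.3 RPM, and on day 8 it was at 70.6, 52.5, 49.6 and 49.96 RPM, or 74.3% of the peak mean. Every library from day 3 on lay above every library of day 0. Relative to day 0 the log2 change was 1.97 by day 3 (SE 0.39, adjusted p = 0.000869), 3.60 by day 6 (adjusted p = 6.43e-09) and 3.17 by day 8 (adjusted p = 5.08e-08). The steps of 1.45 into day 4 (adjusted p = 0.019) and of 1.18 from day 5 to day 6 (adjusted p = 0.0403) did not pass in any fit that left out 1 replicate, the second also not under 75th percentile scaling (1.01, adjusted p = 0.0797) or quantile normalization (1.03, adjusted p = 0.0658). With the replicate block the step from day 4 to day 5, of -1.004, passed as well (adjusted p = 0.0327). The day 8 minus day 4 difference was -0.26 (SE 0.39, adjusted p = 0.666).

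Foxd3 had a plateau and an abrupt loss. Its values were 6.94, 12.04, 6.17 and 0 RPM on day 0, 16.2, 18.3, 21.9 and 17.2 RPM on day 1, and 30.9, 36.9, 27.6 and 31.9 RPM on day 4. On day 5 they were 1.30, 2.47, 0 and 2.08 RPM, with 0 to 6 reads per library. No library of days 5 to 8 was above 8.68 RPM, against 27.6 RPM in the lowest of day 4, and on day 7 only 2 reads were counted in 4 libraries. The change from day 4 to day 5 was -4.51 on the log2 scale (SE 0.58, adjusted p = 1.84e-06), the largest step between consecutive days among the 7 genes. By reads alone the ratio of day 7 to day 4 was 0.0111, with a 95% exact counting interval of 0.00133 to 0.0405. On day 6 the gene was at 3.96, 7.41, 2.76 and 8.68 RPM, 1.89 above day 5 (adjusted p = 0.0265), and from there to day 7 it changed by -2.70 (adjusted p = 0.0142). Both of these steps rest on libraries with 0 to 14 reads, and each lost its call in 3 of the 4 fits without 1 replicate. The day 8 level was 4.80 below day 4 (adjusted p = 7.74e-08), and this was called under every alternative run.

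The Foxd3 comparisons with day 0 depend on its day 0 libraries, which held 15, 26, 6 and 0 reads. On day 1 the difference was already 2.04 (SE 0.58) but was not called (adjusted p = 0.45). The rise amounted to 2.09 by day 2 (adjusted p = 0.0355), to 2.33 by day 3 (adjusted p = 0.00741) and to 2.83 by day 4 (adjusted p = 0.000446). From day 1 to day 2 the step was only 0.06 (adjusted p = 0.975), so the day 2 call does not place the rise between these days. The day 2 and day 3 calls were lost without replicate 3 (adjusted p = 0.316 and 0.0564) and without replicate 4 (adjusted p = 0.335 and 0.157), and that of day 4 was kept. The later levels were 1.68, 2.49 and 1.97 below day 0 on days 5, 7 and 8 (differences of -1.68, -2.49 and -1.97, adjusted p = 0.0232, 0.000741 and 0.00617). Without the 2 X14 libraries of day 0 these differences were -0.64, -1.46 and -0.93 and none passed (adjusted p = 0.464, 0.0633 and 0.247). The day 5 call was also lost with log2(RPM + 1) (adjusted p = 0.0661) and with voom (adjusted p = 0.0897). It was lost too without replicate 1, 2 or 3 and in the fit of the 2 days alone (adjusted p from 0.0957 to 0.292). The day 8 call was also lost without replicate 1 or 3 and in the fit of the 2 days alone (adjusted p from 0.0836 to 0.127).

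Zic2 and Zic5 were already present on day 0 and no day passed the test against it. Zic2 was at 48.6, 50.5, 26.7 and 17.9 RPM on day 0 and at 73.3, 107, 65.7 and 85.8 RPM on day 3, its peak, where all 4 libraries were above all 4 of day 0. The log2 difference was 1.31 (SE 0.53, adjusted p = 0.0923). It passed with the replicate block (adjusted p = 0.0238) and without replicate 1 (1.55, adjusted p = 0.0371). On day 5 the 4 libraries spread from 6.50 to 48.0 RPM around a mean of 29.4 ± 20.1 (SD, n = 4), and the lowest value came from 5 reads in the shallowest library. With the block the step from day 4 to day 5 passed at -1.12 (adjusted p = 0.049). Zic5 was at 39.8, 41.2, 26.7 and 21.3 RPM on day 0, at 72.7, 71.5, 44.1 and 54.7 RPM on day 2 and at 9.34, 37.4, 20.02 and 44.0 RPM on day 8. The day 2 difference from day 0 was 0.94 (SE 0.41, adjusted p = 0.157). Day 8 was 1.08 below day 4 (a difference of -1.08, adjusted p = 0.0399), a call that was lost in 3 of the 4 fits without 1 replicate (-0.81, -1.17 and -1.12 without replicates 1, 2 and 3) in the fit of these 2 days alone (adjusted p = 0.0966) and when low genes were removed on the deposited scale (adjusted p = 0.0508).

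**Figure D2:**
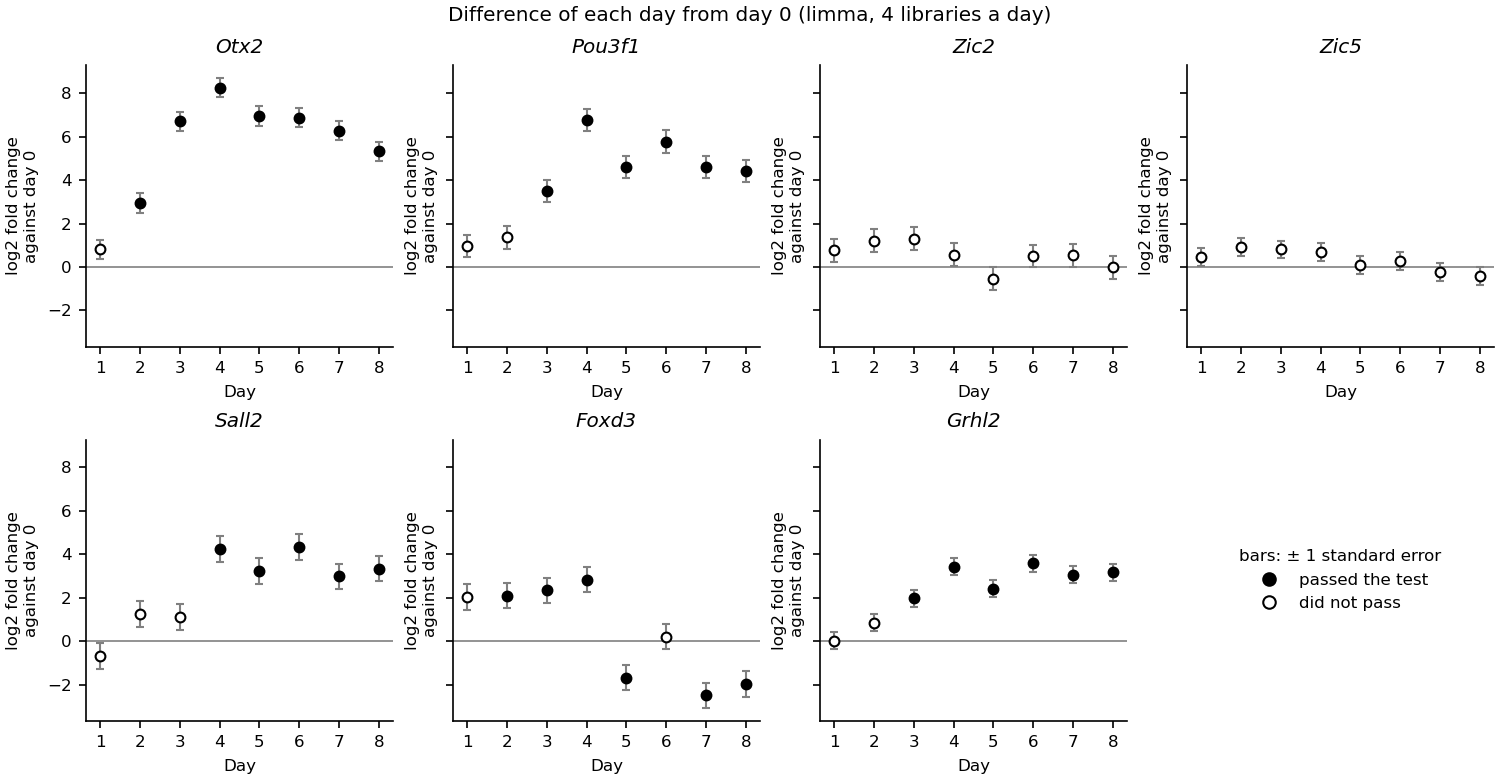
Log2 fold change of each gene on days 1 to 8 against day 0, from limma with 4 libraries a day; bars are 1 standard error either way. Filled points passed the test and open points did not: Otx2 passed from day 2 on, Pou3f1 and Grhl2 from day 3, Sall2 from day 4, and Zic2 and Zic5 on no day.

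The days of first rise moved when the libraries labelled X14 on day 0 were left out, an alternative chosen after seeing the data, which leaves 2 X18 libraries on day 0. In that fit all 7 genes passed on day 2, when 17.9% of all genes tested were called higher in the same fit, against 2.09% with these libraries. The log2 differences were then 3.02 for Otx2, 1.87 for Pou3f1, 1.80 for Zic2, 1.32 for Zic5, 1.82 for Sall2, 3.13 for Foxd3 and 1.47 for Grhl2, with adjusted p from 9.2e-05 for Otx2 to 0.0499 for Sall2. Foxd3 passed on day 1 as well (3.07, adjusted p = 0.00485), beside 5.15% of all genes. On day 3 Zic2 was still called (1.90, adjusted p = 0.0221) and Zic5 and Sall2 were not, beside 18.1% of all genes. First rises moved under other alternatives as well. Without replicate 1 that of Pou3f1 was on day 2 and that of Sall2 on day 3. In fits of 2 days alone it was day 3 for Otx2 and day 4 for Foxd3 and Grhl2. Under quantile normalization it was day 3 for Foxd3.

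Between consecutive days the calls of the 7 genes gathered around day 4. Of the 7 genes 0 were called from day 1 to day 2, when 0.0342% of all genes tested were called, and it was 0 by voom too. At an unadjusted p under 0.05 there were 3, beside 1253 of the 14612 genes tested. From day 2 to day 3 only Otx2 was called. From day 3 to day 4 there were 4, all upward (Otx2, Pou3f1, Sall2 and Grhl2), when 5.03% of all genes were called. Next, 3 were called from day 4 to day 5, all downward (Otx2, Pou3f1 and Foxd3), beside 10.6% of all genes. From day 5 to day 6 there were 2, Foxd3 and Grhl2, both upward (9.72% of all genes), and from day 6 to day 7 there was Foxd3 alone (0.890%). From day 7 to day 8 it was 0 of 7 by limma and by voom (0.438% of all genes called). At an unadjusted p under 0.05 there was 1, beside 1372 of the 14612 genes tested. The mean of each of Pou3f1, Zic2, Zic5, Sall2, Foxd3 and Grhl2 was lower on day 5 than on both day 4 and day 6. That of Otx2 was not. Only for Foxd3 did both steps pass the test. Over all genes tested, 845 were called lower from day 4 to day 5 and 1043 higher from day 5 to day 6. The share of all genes with both was not counted, and day 5 holds the shallowest library. With day 4 fixed as the reference, 2 genes were lower on day 6, Otx2 and Foxd3 (-2.62, adjusted p = 0.0018), beside 3.53% of all genes, and 4 were lower on day 8, Otx2, Pou3f1, Foxd3 and Zic5, beside 9.01%.

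Per length, Otx2 and Pou3f1 were the most abundant of the 7 transcripts on day 4, with mean levels of 79.5 and 69.4 RPKM. Zic2 was at 20.6, Foxd3 at 13.4, Sall2 at 12.3, Grhl2 at 12.2 and Zic5 at 10.7 RPKM on that day. On day 0 the order began with Zic2 at 12.5 RPKM and Zic5 at 6.60 RPKM, and ended with Otx2 at 0.170 RPKM. Within a gene, neighbouring days in the order of mean RPM mostly overlapped: the ranges of the 4 libraries overlapped in 8 of 8 neighbouring pairs for Zic2 and Zic5, 7 of 8 for Pou3f1 and Grhl2, 6 of 8 for Otx2 and Sall2 and 5 of 8 for Foxd3. The peak day was the same in all 4 cultures for Otx2, Pou3f1, Foxd3 and Grhl2. For Sall2 it was day 4 in X14 single and day 6 in the others, for Zic2 day 2 in X14 double and day 3 in the others, and for Zic5 day 2 in both X14 cultures, day 3 in X18 double and day 4 in X18 single.

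The gap between the libraries labelled double and single was asked of each gene with day and line as covariates. Each label has 2 libraries a day, 1 of each line, and the fit holds no term for the culture. Its p-values rest mainly on scatter between days within a line and label, and not on spread between independent cultures of a label. The gap passed for 1 of the 7 genes, Sall2, beside 2.99% of all genes. Sall2 was lower in double by 1.14 on the log2 scale (a double minus single difference of -1.14, SE 0.20, adjusted p = 0.000183). Sall2 was lower in the double library in 16 of 18 pairs of a line and a day. Its widest gaps came from 0 to 10 reads per library. They were -3.05 in X14 and -2.11 in X18 on day 1, and -2.05 in X18 on day 0. On day 4 Sall2 stood at 39.0 RPM in X14 double against 119 RPM in X14 single, and at 33.8 against 74.5 RPM in X18. Without day 0, and so without the libraries that go against their labels, the gap was -1.22 (adjusted p = 6e-06). It was -1.45 in X14 alone without day 0 (adjusted p = 0.00614) and -0.98 in X18 alone without day 0 (adjusted p = 0.0297), the latter under the fold limit. With day 0 kept, X14 alone gave -1.18 (adjusted p = 0.169), as did leaving out replicate 4 (-1.18, adjusted p = 0.0641), and without day 1 it was -0.96 (adjusted p = 0.00107).

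Another 4 genes had an adjusted p under 0.05 and a gap under the fold limit. Zic2 was at -0.93 (SE 0.19, adjusted p = 0.000915), Pou3f1 at -0.75 (SE 0.21, adjusted p = 0.0119), Zic5 at -0.63 (SE 0.16, adjusted p = 0.00652) and Grhl2 at 0.57 (SE 0.16, adjusted p = 0.0112). Grhl2 stood apart in sign, with the higher level in the double library in 15 of 18 pairs, such as 88.1 against 58.2 RPM in X14 and 72.1 against 50.4 RPM in X18 on day 4. Without day 0, when 4.54% of all genes were called, the gap of Zic2 was -1.08 and passed (adjusted p = 5.57e-05), that of Pou3f1 was -0.95 (adjusted p = 0.000344), that of Zic5 -0.73, that of Grhl2 0.61 and that of Foxd3 -0.61 (adjusted p = 0.0337). Zic2 also passed without replicate 3 or without replicate 4 (both -1.12), without day 1 (-1.05) and without day 2 (-1.03). Without replicate 1 or 2 it was -0.74 (adjusted p = 0.0364 and 0.179) and did not pass. For Pou3f1 the gap was -0.37 without replicate 1 or 2 (adjusted p = 0.417 and 0.59) and -1.13 without replicate 3 or 4 (adjusted p = 0.0568 and 0.0234). It was -1.31 in X14 alone without day 0 (adjusted p = 0.0078) against -0.59 in X18 (adjusted p = 0.159). Over the course the gaps of Otx2 and Foxd3 were 0.16 (SE 0.21, adjusted p = 0.66) and -0.42 (SE 0.26, adjusted p = 0.302).

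For 3 of the 7 genes the gap itself changed between days 1 to 4 and days 5 to 8. This was tested by the interaction of label and period, which was called for 4.07% of all genes. The p-values of this interaction rest on the same scatter between days as those of the gap. Otx2 was higher in double in 8 of 8 pairs on days 1 to 4, with a mean gap of 0.81, and lower in 5 of 8 pairs on days 5 to 8, with a mean gap of -0.73. The change was -1.53 (SE 0.32, adjusted p = 0.00403). On day 2 it was at 13.6 RPM in X14 double and 4.66 RPM in X14 single, and on day 8 at 11.9 and 61.7 RPM. The Otx2 gaps on days 1 and 2, from 1.04 to 1.54, came from 0 to 36 reads per library. On days 3 and 4, with 151 to 545 reads, they were 0.17 to 0.58, and on days 5 and 6 they were -0.39 to 0.22. Foxd3 went from 0.12 to -1.34, a change of -1.46 (SE 0.33, adjusted p = 0.00657), but its late values came from 0 to 14 reads per library. Zic5 went from -0.21 to -1.25, a change of -1.04 (SE 0.26, adjusted p = 0.015). Zic2 showed a change of -0.97 that did not pass (SE 0.32, adjusted p = 0.0689), from a mean gap of -0.60 to -1.56. The changes of Pou3f1 (0.26, SE 0.37), Sall2 (0.52, SE 0.34) and Grhl2 (-0.13, SE 0.27) did not pass either, with adjusted p = 0.786, 0.434 and 0.856.

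Other lists differed between the labels too. Of the 12 naive pluripotency genes 11 were higher in double and 5 were called (Prdm14, Tcl1, Dppa3, Klf2 and Tbx3, log2 differences from 1.02 to 1.43), with a median difference of 0.77. Of the 18 formative genes 16 were lower in double and 1 was called, Lin28a (-1.06, adjusted p = 0.000595), with a median of -0.48, beside -0.05 over all genes tested. Their part in the gaps of Sall2, Zic2 and Pou3f1 was not tested.

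Leaving out 1 replicate leaves 1 label of a line without a partner, and few of these calls outlasted it. Otx2 passed without replicates 1, 2 and 3 and not without replicate 4 (-1.42, adjusted p = 0.0707). Foxd3 passed only without replicate 4, with -1.47, -1.29 and -1.45 without replicates 1, 2 and 3 (adjusted p = 0.0519, 0.165 and 0.0884), and Zic5 in none of the 4 fits (-0.73 to -1.34). On day 8 the gap was -2.37 in X14 and -1.38 in X18 for Otx2, and -2.001 and -1.14 for Zic5. Pou3f1 had its widest gap on day 3 in both lines, -3.21 in X14 and -2.24 in X18, and from there on its gap was smaller.

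**Figure D3:**
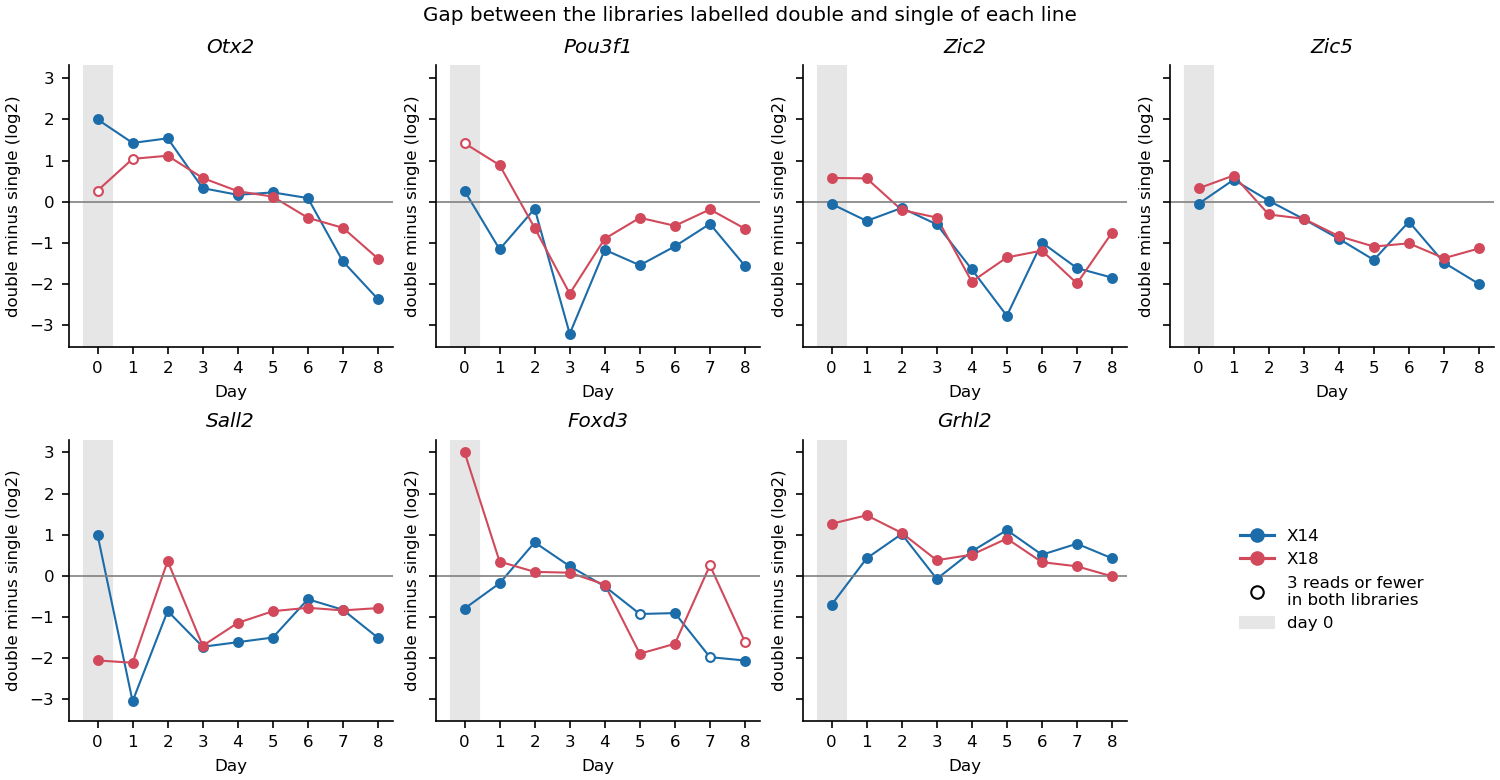
Double minus single difference of the deposited log2 values for each gene on days 0 to 8, in the lines X14 and X18, 1 library of each label per point. Open points have 3 reads or fewer in both libraries, and the shaded day 0 holds the X14 pair that goes against its labels. The lines of Otx2 cross from above 0 on days 1 to 4 to below 0 on days 7 and 8 in both lines, and Grhl2 stays at or above 0 in 15 of 18 points.

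The lines themselves were compared in the same fit. Of the 7 genes 0 were called between X18 and X14, by limma and by voom, beside 0.0137% of all genes called by limma. An unadjusted p under 0.05 was found for 0 of the 7, beside 2546 of the 14612 genes tested. The differences ranged from -0.30 for Foxd3 to 0.05 for Otx2. The gap differed between the lines for 0 of the 7 genes by both tools, and for 0% of all genes tested. At an unadjusted p under 0.05 there were 0 of the 7, beside 296 of the 14612 genes tested. The widest difference between the gaps was that of Pou3f1, 0.77 (SE 0.40, unadjusted p = 0.0637).

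Each of the 7 genes belongs to a family, and 15 further family members were listed. Of the 15, 10 did not reach the limit for testing (at least 1 RPM in 4 libraries): Otx1, Crx, Pou3f2, Pou3f3, Pou3f4, Zic1, Zic4, Foxd1, Foxd2 and Foxd4. None of the 10 had more than 3 reads over all 36 libraries or more than 0.823 RPM in any, so Otx2, Pou3f1 and Foxd3 were the only listed members of their families above the floor. The other 5 were tested. Among the spalt genes Sall4, a core regulator of pluripotency, was at 189 RPM on day 0 and 196 RPM on day 8, and Sall3 fell by 2.15 to day 4 (adjusted p = 0.00702) while Sall2 rose. Grhl1 rose by 1.64 to day 4 (adjusted p = 0.0188) to a level of 8.10 RPM, against 67.2 RPM for Grhl2, and Grhl3 stood at 12.8 RPM on day 0 and 8.96 RPM on day 4 (adjusted p = 0.394). On day 4, 1 of the 5 was higher and 1 lower (6.40% of all genes were lower), with a median log2 fold change of 0.48. Without the X14 libraries of day 0 it was 2 and 0. On day 8, 0 of the 5 were higher and 1 lower, beside 23.9% and 11.1% of all genes. Without those libraries it was 1 and 1.

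**Figure D4:**
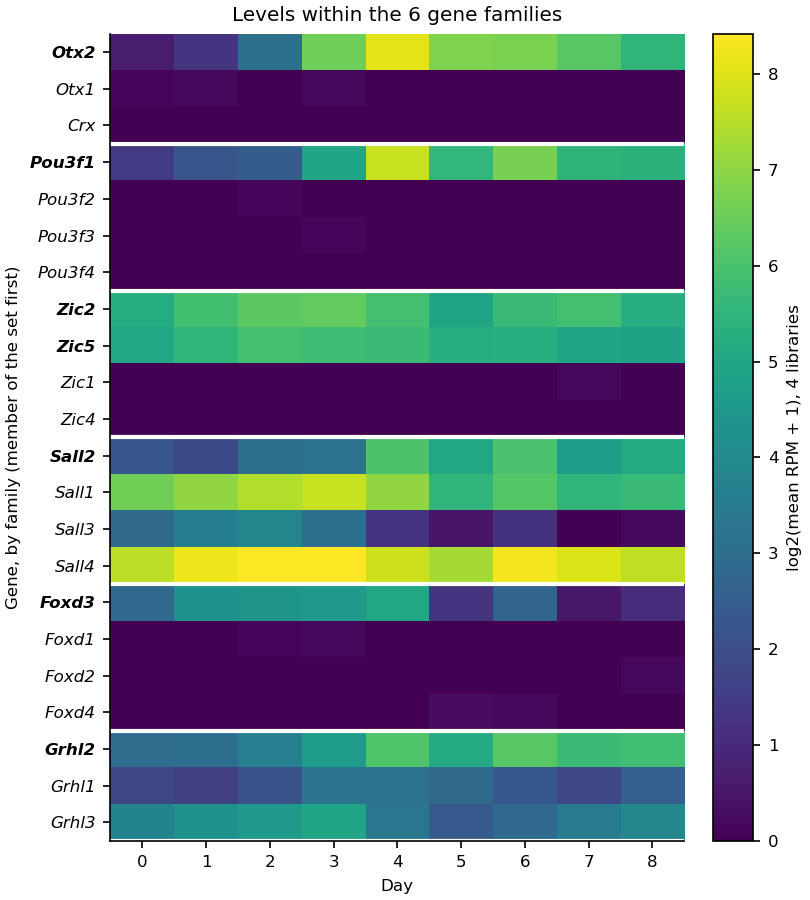
Mean level over 4 libraries, as log2(mean RPM + 1), of the 7 genes (bold) and 15 further members of their 6 families on days 0 to 8. In the OTX, POU3F and FOXD families the bold gene is the only one above 1 RPM in any library, whereas Sall1, Sall4 and Grhl3 were present beside the bold genes of their families.

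Other genes of the formative programme were read beside them. Of 18 such genes tested, 14 were higher on day 4 than on day 0 and 0 lower, with a median log2 fold change of 3.11. They include Fgf5, a growth factor that marks the post-implantation epiblast (adjusted p = 6.49e-12), and Dnmt3b, a de novo DNA methyltransferase (5.29, adjusted p = 1.6e-10). From day 4 to day 8, 11 of the 18 were lower and 0 higher, among them Dnmt3b and Lef1, a factor of WNT signalling (-5.29, adjusted p = 3.22e-09), and against day 0 there were 9 higher and 5 lower on day 8. That split was 9 and 3 without the X14 libraries of day 0, 6 and 6 with 75th percentile scaling, and 7 and 6 with quantile normalization. Fgf5 had 0 reads on days 0 to 2 and reached 53.0 RPM by day 4. It stood at 5.02 RPM a day later and returned to 101 RPM by day 6. The means of Pou3f1, Sall2 and Grhl2 were also lower on day 5 than on these days, but for none of them did both steps pass. All 12 naive pluripotency genes were lower on day 4 (median -3.59), among them Klf4, a factor of the naive network (-5.40, adjusted p = 3.07e-08), and all 12 on day 8. Without the X14 libraries of day 0, it was 10 of the 12 on both days. Of the 3 core pluripotency genes, Nanog was lower on day 4 (-4.20) and all 3 on day 8. These lists were chosen with results of these data known.

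Of 12 epithelial genes, 7 were higher on day 4 and all 12 on day 8, with medians of 1.42 and 3.13, and 0 were lower. Without the X14 libraries of day 0 the first of these counts was 8. Cldn6, a tight junction claudin, rose by 4.68 to day 4 (adjusted p = 2.22e-07), and Esrp1, an epithelial splicing regulator, by 5.92 (adjusted p = 5.7e-08). Their summed level ranged from 323 to 1216 RPM at day 0, from 1471 to 1775 RPM at day 4 and from 2650.5 to 3467 RPM at day 8. Grhl2 rose and stayed up over these days, and its part in these levels was not tested. Between the labels 4 of the 12 epithelial genes were higher in double and 0 were called (median -0.28), whereas Grhl2 was higher in double by 0.57. Several of the 7 genes are also used by neural and neural crest cells, so markers of those were read as well. Of 10 neural markers 7 were tested, 0 were higher and 1 lower on day 4, and 1, Nes, was higher and 2 lower on day 8. Without the X14 libraries of day 0 there was 1 higher on day 4. The defining markers Neurog2, Hes5 and Sox1 were at or near 0 on day 8, and the summed level of the list was 103 to 164 RPM on day 0 and 57.1 to 89.9 RPM on day 8. Of 8 neural crest markers 4 were tested, and Sox9 and Ets1 were higher on day 8, with a summed level of 0 to 3.24 RPM on day 0 and 28.7 to 45.7 RPM on day 8, nearly all from Ets1 (33.0 RPM), while Pax3, Pax7, Tfap2b and Sox10 stood at or near 0. Of 9 tested markers of mesoderm and endoderm 0 were higher and 1 lower on day 4. On day 8, 3 were higher and 1 lower, beside 23.9% and 11.1% of all genes tested. The 3 were T (5.85, adjusted p = 2.38e-09), Hand1 (0 reads on day 0 and 57.1 RPM on day 8) and Foxa2 (3.54, adjusted p = 4.55e-06). The summed level of the list was 94.0 to 297 RPM on day 8. Without the X14 libraries of day 0, 3 were higher and 0 lower on day 8. T, Hand1 and Foxa2 were thus higher on day 8, when Otx2, Foxd3 and Pou3f1 were lower than on day 4. Their part in that was not tested.

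For each of the 7 genes the 3 genes with the most similar pattern over the 36 libraries were sought among the 9403 tested genes that averaged 10 RPM or more. These are descriptions, since all genes share the same libraries and days. Otx2 was closest to Id1 (Pearson r = 0.94), Thbs3 (0.91) and Gm98 (0.91). Pou3f1 was closest to Pim2 (0.94), Dusp6 (0.94) and Enpp2 (0.93), and Sall2 to Dusp6 (0.95), Igsf9 (0.94) and Bcl2l11 (0.93). Foxd3 was closest to Etf1 (0.91), Bop1 (0.91) and Ppa1 (0.90), and Grhl2 to Podxl (0.92), Foxo4 (0.92) and Acsl5 (0.91). Zic2 was closest to Ccnd1 (0.86), Spry2 (0.86) and Tmem8 (0.83), and Zic5 to Elovl5 (0.86), Hdac2 (0.84) and Cdca7 (0.83). Among the 7 genes themselves, Otx2, Pou3f1, Sall2 and Grhl2 had r of 0.77 to 0.89 with one another, and the neighbours Zic2 and Zic5 had r of 0.82. Foxd3 had r of 0.57 with Zic2 and 0.73 with Zic5, and between -0.28 and -0.09 with the other four.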

How the data were processed

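RNA-seq of Xmas mESCs was analysed in 36 libraries, 4 on each of 9 days. Per the methods, 75 bp single-end reads were trimmed and aligned to mm10 (the submitters' processing notes name TopHat2 2.0.12) and quantified in SeqMonk. The annotation version is not stated. The values the authors deposited are on the log2 scale and, from the values, log2 RPKM, with a gene without reads written as 0.9 read. The design had assumed log2 RPM, and limma was kept, since fold changes within a gene are the same. Of the genes 100% resolved to whole reads (tolerance 0.02 read) over 1 exon length per gene, which gave reads and RPM. Genes with at least 1 RPM in 4 libraries were tested, two-sided, with limma 3.58.1 in R 4.3.3, checked on simulated data. The simulated libraries were drawn independently, so that check does not cover scatter shared by libraries of the same line and label. The rule named the 7 members, genes of written lists and the 3 genes most alike to each member. Some genes of the lists are not reported here. Members and lists were chosen with earlier results of these data known. All 36 value columns were used and 0 were left over. The same number marks the same line and label on every day, so numbers pair libraries: deviations from day means correlated at 0.13 on average within a number and -0.04 between numbers (lowest within a number -0.58). No pair of libraries of a day agreed within sampling noise (lowest chi-squared per gene 1.23). Alternatives covered scaling, filters, log2(RPM + 1), voom, libraries left out, the replicate block and smaller fits. Intervals and floors cover counting error only.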

Additional observations from a re-analysis of the deposited data

Results flagged for a closer look

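For 3 genes the double minus single gap differed between days 1 to 4 and days 5 to 8 by a test of the difference itself. The change was -1.53 on the log2 scale for Otx2, -1.46 for Foxd3 and -1.04 for Zic5. Among 63 groups of 4 libraries, 1 held a library far from the others: Grhl2 on day 8, where replicate 1 (X14 double, 70.6 RPM) was the highest and its gap to the next library was 0.841 of the whole range on the log2 scale. Chance alone marks about 1 in 20 such groups.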

How the results depend on the processing

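Of 56 comparisons of the 7 genes with day 0, 30 were called, and 24 to 34 under the alternatives. Between consecutive days 11 of 49 were called, and 5 to 9 without 1 replicate. From day 4 to days 6 and 8, 6 of 14 were called, and 4 to 6 under the alternatives. The label gap passed for 1 gene, for 1 to 2 without 1 replicate, for 2 without day 0, 2 on days 1 to 4 alone, 2 without day 2, 3 on days 5 to 8 alone, 3 in X14 alone without day 0, 0 in X14 alone, 0 in X18 alone without day 0, and 5 with no minimum fold change. The share of all genes with no minimum fold change is not given here. Chosen after seeing the data were the fits without the X14 libraries of day 0. So were those of 1 line without day 0 and those without 1 of days 1 to 8. The change of the gap with period passed for 3 genes and for 1 in each fit without 1 replicate. The 2 comparisons of lines gave 0 under every alternative. With the replicate block, 32 of the 56 comparisons with day 0, 16 of the 49 between consecutive days and 6 of the 14 were called. The block gained 7 calls and lost 0. Those not given above were Otx2 and Sall2 from day 1 to day 2 (2.14 and 1.93), and it changed no other call. The block could not be used for the label gap, where the number is the label of a line.

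Of 66 single-gene results, 37 kept their direction and their side of the threshold under every alternative. Directions turned only for values that did not pass: the Otx2 gap was -0.13 with voom, -0.0061 in X14 alone without day 0 and -0.73 on days 5 to 8 alone, the Foxd3 gap was 0.12 on days 1 to 4 alone, and the Grhl2 change of gap ran from -0.40 to 0.13 without 1 replicate. The cause was not tested.

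Over all genes tested, day 8 differed from day 0 by a median of 0.23 on the log2 scale, 0.02 with 75th percentile scaling and -0.09 with quantile normalization. Foxd3 after day 4, Otx2 and Pou3f1 before day 3, and Sall2 on days 0 and 1 lay near the floor of 3 reads. The size of their folds therefore depends on the value written for no reads.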
